A study of Mus with 5 samples.

Results

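The peaks assigned to 6 genes of the interferon regulatory factor (IRF) family, Irf1, Irf2, Irf3, Irf4, Irf5 and Irf8, were collected from 4 annotated lists of RARα and BATF binding in cultured mouse CD8 T cells. A peak was taken when the list of gene symbols that its annotation gives held 1 of the 6 genes. There were 36 such peaks among 27480 in the 4 lists, and 5 of the 6 genes had at least 1. All values below describe binding, and no expression was measured in these lists, so neither the labelled cell type nor any transcript level of the IRF genes could be checked.

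The study measured where the nuclear receptor RARα and the AP-1 factor BATF sat on chromatin by chromatin immunoprecipitation and sequencing, with and without a short exposure to retinoic acid (RA), the ligand of RARα. Wild-type splenic CD8 T cells, labelled as naive at the start, were activated with antibodies to CD3 and CD28 plus IL-2 for 24 h and rested for 24 h in IL-2 at 100 U/ml. RA at 50 nM was then added for 1 h, or left out in the control. The treatment labels of the samples name different interleukins, whereas the growth protocol names IL-2 alone, and the RA status of the IgG sample was not stated. Each of the 4 conditions (RARα control, RARα RA, BATF control and BATF RA) gave 1 list, called on 2 pooled alignment files against 1 shared IgG file.

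Depth, as fragments per pool, was 23110180 in BATF control and 16424269 in BATF RA, 22655611 in RARα control and 22475060 in RARα RA, and 11410673 in IgG. The BATF RA pool thus had 71.1% of the depth of the BATF control pool. With 1 list per condition there was no replicate error and no test of a difference between conditions, and intervals cover counting error only. A difference between control and RA cannot be told apart from a difference in yield between 2 single pools, nor, for BATF, from the difference in depth, while the RARα pools were of nearly equal depth. RARα peaks were called at p of 0.001 and BATF peaks at p of 1e-05, so the RARα lists admit weaker sites.

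IRF proteins share a DNA-binding domain that recognises GAAA-rich elements first described in interferon-responsive promoters. IRF4 and IRF8 bind such elements weakly alone, and in lymphocytes they bind with BATF and a JUN protein on composite AP-1 and IRF elements, so that IRF4 and BATF act together in the response of CD8 T cells to antigen. IRF1 is induced by interferon-γ and activates interferon-stimulated genes, IRF2 competes with it on the same elements, IRF3 is activated by phosphorylation downstream of nucleic acid sensors, and IRF5 acts downstream of Toll-like receptors, mainly in myeloid and B cells.

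RARα peaks were found at Irf2, Irf4 and Irf8 without RA and at none of the 6 genes with RA, and BATF peaks were found at all but Irf5. In RARα control, 3 of the 6 genes had a peak, where 7.18% of all protein-coding genes did. In RARα RA it was 0 of 6, against 3.19% of genes. In BATF control it was 5 of 6 (all but Irf5), against 48.6%. In BATF RA it was 4 of 6 (Irf2, Irf3, Irf4 and Irf8), against 38.2%. The number of peaks was 4 of 1172 in RARα control, 0 of 597 in RARα RA, 21 of 15812 in BATF control and 11 of 9899 in BATF RA. A RARα RA peak within 5 kb was rare in the whole RARα control list as well (10.2%), so the 0 of 4 at IRF genes is close to what the list as a whole gave.

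Of the 36 peaks, 12 overlapped the gene body, 22 lay more than 10 kb away, and 26 named at least 1 other gene, up to 28 genes at a single peak. An assignment by annotation therefore does not show which gene a site acts on. Peaks of the 4 lists that overlapped were merged into 22 sites. BATF control had a peak at every one of the 22 sites, BATF RA at 11, RARα control at 4 and RARα RA at 0.

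**Figure D1:**
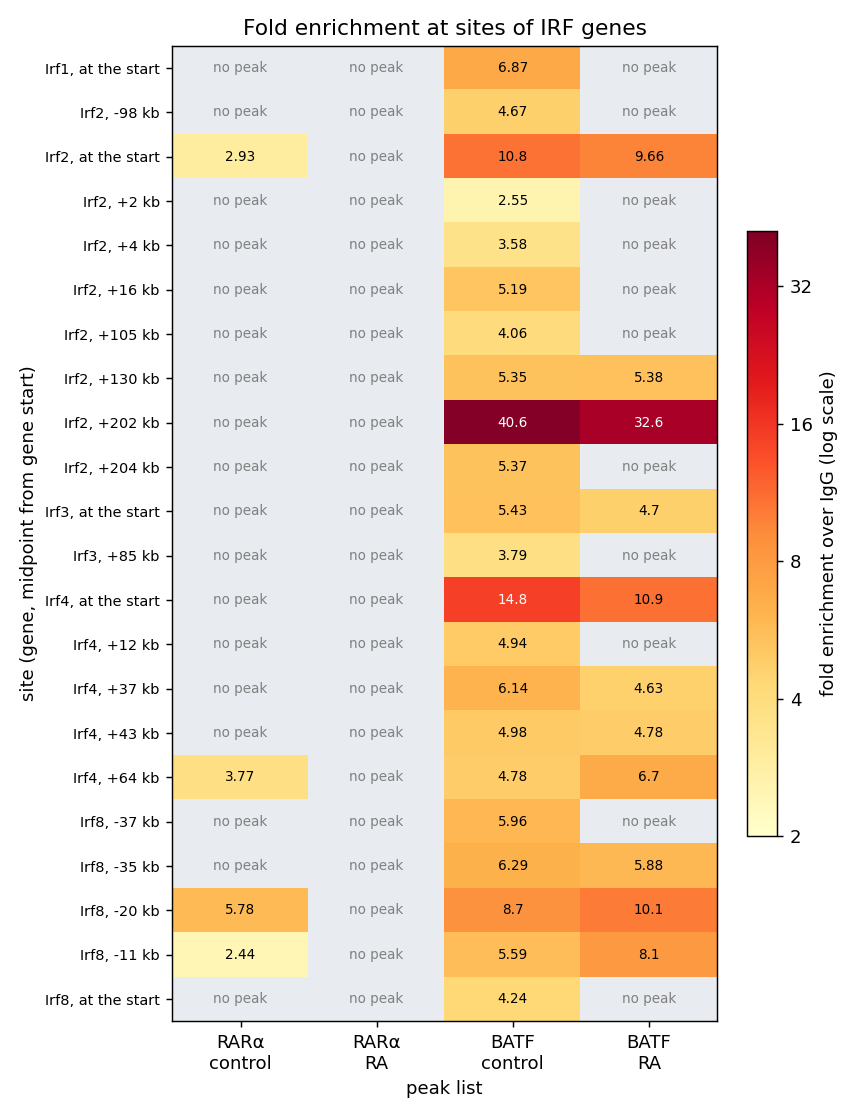
Fold enrichment over IgG (colour, log scale, value printed) at the 22 merged sites of the IRF genes (rows, with the distance of the site's midpoint from the lower-coordinate end of the gene) in the 4 peak lists (columns). Grey cells had no peak in that list, and the strongest values are the BATF peaks 202 kb from the start of Irf2, at 40.6 in control and 32.6 with RA.

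Irf4, the partner of BATF that T cell receptor signals induce in proportion to their strength, lies at chr13:30749233-30766981 in the mouse build mm10. Its promoter carried the second-highest BATF fold enrichment of the family, while sites of Irf8 and Irf2 with a higher IgG level had a larger pileup. The BATF control peak at chr13:30746953-30751125 was 4173 bp long, against a median of 609 bp for that list, and reached a fold enrichment of 14.8 (rank 596 of 15812) with a pileup of 56.3. In BATF RA the peak at chr13:30747391-30748647 was 1257 bp long, with a fold enrichment of 10.9 (rank 777 of 9899) and a pileup of 32. The scaled pileup, which is the number of fragments at the summit per 10000000 fragments of the pool, was 24.7 in control (95% counting interval 18.7 to 32.0) and 19.5 with RA (13.3 to 27.5), and the intervals overlap.

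Above the end of Irf4 were 3 distal sites that BATF occupied in both lists. The site 19266 bp away (chr13:30786247-30786842 in control, chr13:30786223-30786824 with RA) had a fold enrichment of 6.14 in control and 4.63 with RA, and the site 25450 bp away (chr13:30792431-30792923 and chr13:30792426-30792863) had 4.98 and 4.78. The peak inside intron 7 of 8 (chr13:30760406-30761123, fold 4.94) had no peak of BATF RA over it. RARα was found at the farthest of the 3 distal sites only, in control (chr13:30813258-30813750), where 16 fragments covered the summit with a fold enrichment of 3.77.

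At that RARα site the BATF fold enrichment was higher with RA. The BATF RA peak at chr13:30813005-30813750 had a fold enrichment of 6.70 from 25 fragments, and the BATF control peak at chr13:30812990-30814085 had 4.78 from 28 fragments. The annotation of this control peak named Exoc2, a subunit of the exocyst complex, and not Irf4, so it is outside the 21 BATF control peaks counted above and enters only the site counts. The RARα and BATF RA peaks of this site named Exoc2 beside Irf4. Their detailed annotation placed both at a transcript end, and the RARα peak lay 46277 bp from Irf4. The BATF scaled pileups were 12.1 in control (8.05 to 17.5) and 15.2 with RA (9.85 to 22.5), so the counting intervals overlap. The IgG level was 1.71 times the background in BATF control and 1.42 times in BATF RA. The RARα summit lay 54 bp from the BATF control summit and 31 bp from the BATF RA summit.

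Irf8, which encodes the other BATF partner and is best known as a regulator of dendritic cell and B cell development, lies at chr8:120736358-120756694. All of its peaks but the promoter peak lay below the lower-coordinate end of the gene, at 10039 bp to 36577 bp from it, and those intergenic peaks also named 1190005I06Rik, Cox4i1 and Emc8. The promoter peak of BATF control (chr8:120735969-120736608, fold 4.24, 29 fragments) had no BATF RA peak within 5 kb, the nearest being 10023 bp away. Among BATF control peaks with a fold enrichment within 10% of that value, 45.1% also had none, so an absent RA peak was common at this strength.

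Both intergenic sites of Irf8 with RARα had a higher BATF fold enrichment with RA. At the site with the strongest RARα peak of the family, chr8:120715207-120715624, RARα control had 22 fragments and a fold enrichment of 5.78 (rank 74 of 1172). BATF there had a fold enrichment of 8.70 in control (chr8:120715330-120716731) and 10.1 with RA (chr8:120715361-120715743), and scaled pileups of 14.3 (9.83 to 20.1) and 18.9 (12.8 to 26.8), whose intervals overlap. The RARα summit was 18 bp from the BATF control summit and 21 bp from the BATF RA summit, at the near end of the distances over all 626 overlapping RARα control peaks (median 110.5 bp, quartiles 41 and 265 bp).

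The second RARα site of Irf8, chr8:120725872-120726319, was among the weakest of the list, with 16 fragments, a fold enrichment of 2.44 (rank 1093 of 1172) and an IgG level 2.09 times the genome background. BATF had a fold enrichment of 5.59 in control (chr8:120725227-120725885) and 8.10 with RA (chr8:120725361-120725946), and scaled pileups of 10.8 (7.00 to 16.0) and 15.8 (10.3 to 23.2), again with overlapping intervals. The RARα and BATF peaks overlapped only at their edges here, with summits 735 bp and 795 bp apart. Of the Irf8 sites without RARα, the site 34141 bp away (chr8:120701044-120702217 in control, chr8:120701639-120702199 with RA) had a BATF fold enrichment of 6.29 in control and 5.88 with RA, and the site 36577 bp away (chr8:120699347-120699781) had 5.96 in control and no overlapping BATF RA peak.

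Irf2, whose product competes with IRF1, had the most peaks of the family, with 1 in RARα control, 9 in BATF control and 3 in BATF RA. The gene lies at chr8:46739745-46847458. Its promoter carried BATF in both lists, with a fold enrichment of 10.8 in control (chr8:46738508-46740511) and 9.66 with RA (chr8:46739233-46740332), and scaled pileups of 20.8 (15.3 to 27.5) and 19.5 (13.3 to 27.5). The RARα control peak inside it (chr8:46739342-46739631) rested on 12 fragments, with a fold enrichment of 2.93. This was the single promoter peak of RARα at an IRF gene, and the single RARα site of the family at which BATF fold enrichment was lower with RA. The annotation of this RARα peak and of both BATF peaks named Gm16675 beside Irf2, and binding cannot be split between them.

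The strongest BATF site of the family lay 93348 bp beyond the end of Irf2, in an intergenic stretch whose annotation named Enpp6, a choline-specific phosphodiesterase, beside Irf2. The BATF control peak (chr8:46940806-46942135) had a fold enrichment of 40.6 from 369 fragments, rank 29 of 15812. The BATF RA peak (chr8:46941221-46942012) had 32.6 from 243 fragments, rank 40 of 9899. The scaled pileups were 160 (144 to 177) and 148 (130 to 168), intervals that overlap. No RARα peak was called there in either list. The IgG level at this site was 2.74 times the background in control, so the high pileup sits on a raised IgG level.

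The other Irf2 peaks were weaker. A site 21589 bp beyond the gene (chr8:46869047-46869878 in control, chr8:46869490-46869721 with RA) had nearly the same fold enrichment in both lists, 5.35 in control and 5.38 with RA, at an IgG level 3.77 times the background and with a repeat element named in its annotation. The 6 remaining BATF control peaks had no overlapping BATF RA peak, and their fold enrichment ranged from 2.55 to 5.37. Inside the gene, 3 lay in intron 1 of 8, namely chr8:46741407-46742030 (fold 2.55, classed as promoter), chr8:46743632-46743890 (3.58) and chr8:46755720-46756240 (5.19). The peak at chr8:46844852-46845439 (4.06) was classed as exonic although the detailed annotation placed it in intron 8 of 8. The other 2 were intergenic, at chr8:46641276-46641622 (4.67), 98123 bp before the gene, and at chr8:46943244-46943566 (5.37), 95786 bp beyond it.

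**Figure D2:**
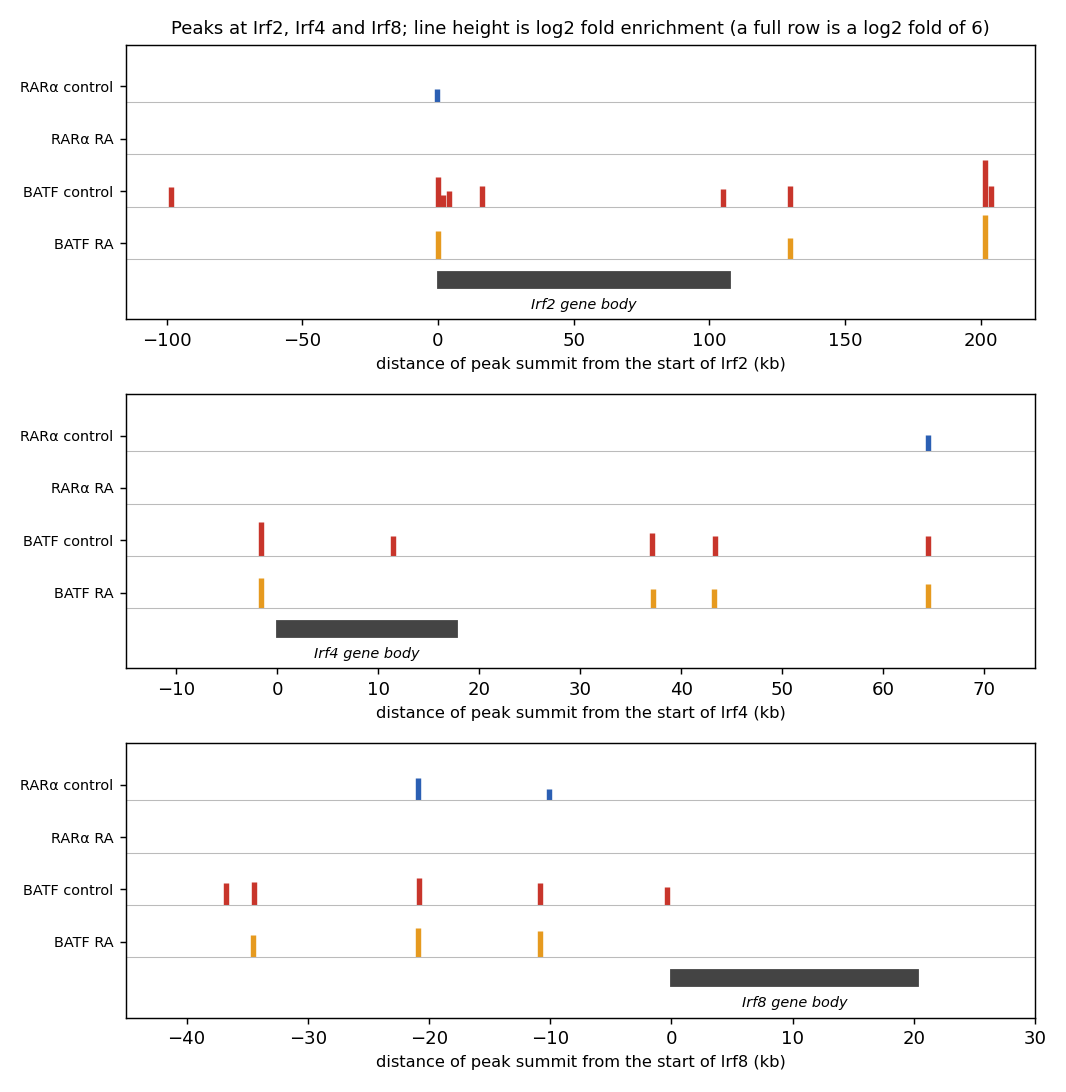
Peak summits at Irf2 (top), Irf4 (middle) and Irf8 (bottom) by distance in kb from the lower-coordinate end of the gene, with a row per peak list and the gene body as a dark bar; line height is log2 fold enrichment on a scale where a full row is 6. RARα control lines stand over BATF lines at 4 places, the RARα RA row is empty, and the BATF RA row repeats part of the BATF control row.

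Irf1, the interferon-γ-induced activator, had 1 peak, in BATF control over its promoter (chr11:53769435-53771634, fold 6.87, 41 fragments), for a gene at chr11:53770014-53778374. No BATF RA peak was called within 5 kb of it. The nearest lay 5439 bp from the peak, just past that limit, and was assigned to Mir7671. Of the BATF control peaks with a fold enrichment within 10% of 6.87, 19.5% also had no BATF RA peak within 5 kb, as did 25.7% of all promoter peaks of the list. The scaled pileup was 17.7 in control (12.7 to 24.1), and the list gives no value with RA to set beside it.

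Irf3, the sensor-activated member, lies at chr7:44997648-45002848 and had BATF at its start in both lists, with a fold enrichment of 5.43 in control (chr7:44997261-44998672) and 4.70 with RA (chr7:44997760-44998676). The scaled pileups were 13.8 (9.47 to 19.5) and 14.6 (9.36 to 21.7), in the opposite order to the fold enrichments and with overlapping intervals. The IgG level at the summit was 1.71 times the background in control and 2.13 times with RA. The annotation gave this peak to the start of Bcl2l12, a gene that shares the region with Irf3, as well as to Irf3, and binding cannot be split between them. A second BATF control peak 79287 bp away (chr7:45082135-45082533, fold 3.79) named 28 genes, among them Irf3. Irf5 had no peak in any list, and the nearest BATF peaks were 57823 bp away in control and 67583 bp away with RA.

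Over all IRF genes, 14 of 21 BATF control peaks had a BATF RA peak within 5 kb (66.7%, Wilson 95% interval 45.4 to 82.8), against 69.9% of the whole list. In the other direction it was 11 of 11 (100%, 74.1 to 100), against 96.3%. Both shares are near their background. By overlap, 10 of the 21 control peaks were shared (47.6%), against 54.4% of the whole list. By class, the share with a BATF RA peak within 5 kb was 4 of 6 for promoter peaks and 9 of 11 for intergenic peaks, against 1 of 4 for those in introns or exons. Over the whole list, 62.3% of intergenic, 64.5% of intronic and 65.3% of exonic BATF control peaks had one, and promoter peaks lacked one in 25.7% of cases. Of the IRF peaks of BATF control, 11 of 21 were intergenic (52.4%), where 18.1% of all peaks were, or 42.6% when counted per gene and peak, since a distal peak can name several genes. By the same classes, 6 of 21 were classed as promoter (28.6%, 13.8 to 50.0) where 58.7% of all BATF control peaks were. In BATF RA it was 3 of 11 (27.3%), against 64.6%. Counted per gene and peak, the share of promoter peaks was 43.1% over the BATF control list, inside the interval for the IRF genes, and 49.4% over the BATF RA list.

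The 14 paired peaks had a lower BATF fold enrichment with RA in 8 cases and a higher one in 6, while 66.9% of the 11048 pairs of the whole list were lower. The median log2 ratio of RA over control was -0.04 at the IRF genes and -0.20 over all pairs. Of the 14 pairs, 4 joined a control peak to a neighbouring RA peak that overlaps another, stronger control peak. The 11 merged sites with BATF in both lists avoid this, and 7 were lower and 4 higher with RA. By scaled pileup, 5 of the 14 pairs were lower with RA, against 66.5% of all pairs, 6 of the 11 sites were higher, and at all 11 the counting intervals of control and RA overlapped. Overlap of these intervals is not a test of a difference, and none was made.

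**Figure D3:**
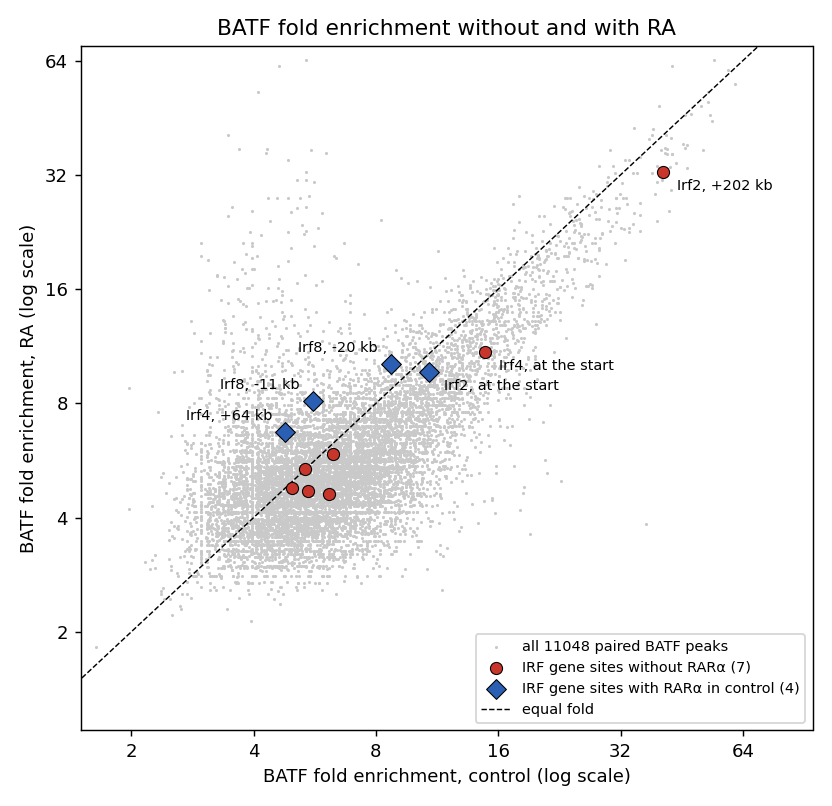
BATF fold enrichment in control (horizontal, log scale) and with RA (vertical, log scale) at all 11048 paired peaks (grey) and at the 11 IRF sites with both peaks, with diamonds for the 4 that carried RARα in control and circles for the 7 that did not. Diamonds sit above the dashed line of equal fold in 3 of 4 cases and circles in 1 of 7.

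The sites with RARα were set beside those without. The 4 RARα control peaks all overlapped a BATF peak in both BATF lists, where 39.5% of all RARα control peaks did, and 4 of 4 had a BATF control peak within 5 kb (100%, 51.0 to 100) where 61.9% of all RARα control peaks did. Of the BATF control peaks at IRF genes, 3 of 21 overlapped RARα control (14.3%, 4.98 to 34.6), against 3.92% of the whole list. At the 4 RARα sites, BATF fold enrichment was higher with RA in 3, by 1.40 times at Irf4 and by 1.16 and 1.45 times at Irf8. Over the whole RARα control list, 405 peaks without a RARα RA partner overlapped BATF in both lists, and 28.6% of them had a higher BATF fold enrichment with RA and 26.9% a higher scaled pileup, a measure that was higher at the same 3 of the 4 IRF sites. At the 7 IRF sites with no RARα it was 1 by fold enrichment and 3 by scaled pileup. The number of sites is small, the lists have no replicates, and no test of this difference was made.

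Support for the RARα peaks was uneven. Their fold enrichments of 2.44 to 5.78 bracket the list's median of 3.09, and 2 of the 4, at Irf4 and at the stronger Irf8 site, passed a p of 1e-05 or a q-value of 0.05. RARα RA peaks were called elsewhere from as few as 10 fragments at an IgG level like that of the Irf4 site, 10 at that of Irf2, and 9 and 14 at those of Irf8, below the 16, 12, 22 and 16 seen in control. Fewer fragments than those levels at the 4 sites with RA would go uncalled, so the lists show an absent peak and not an absence of RARα. The nearest RARα RA peaks lay 1.29 Mb to 5.46 Mb away.

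**Figure D4:**
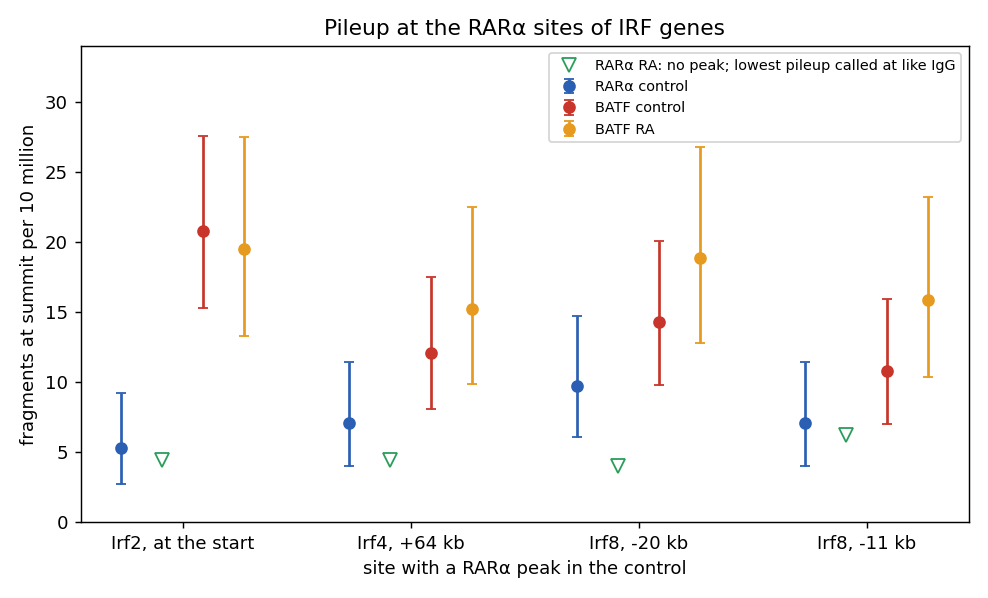
Scaled pileup, in fragments at the summit per 10000000 of the pool (vertical), at the 4 IRF sites with RARα in control (horizontal), as points with 95% Poisson counting intervals for RARα control, BATF control and BATF RA. Open triangles give the lowest pileup at which RARα RA peaks with a like IgG level were called, since no RARα RA peak exists at these sites, and every RARα control point lies above its triangle.

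Genes that work with or upstream of the IRFs were read from the same lists, where, as above, 7.18% of all protein-coding genes had a peak in RARα control, 3.19% in RARα RA, 48.6% in BATF control and 38.2% in BATF RA. The value given for a gene is its highest fold enrichment in a list, and the control and RA values can come from different sites. As for the IRF genes, a peak that named a gene could be intergenic. Of 12 partners of IRFs on DNA, mostly BATF, JUN, ETS-type and IKAROS-type factors, 3 had a peak in RARα control (Ikzf3 at a fold enrichment of 5.43, Jun at 3.14 and Jund at 2.80), 1 in RARα RA (Ikzf3 at 3.04), 10 in BATF control and 8 in BATF RA. Batf itself had the highest BATF fold enrichment of the group in control, at 18.2, and its highest with RA was 8.25 at a different site, both intergenic. Ets1 had 14.8 in control and 11.0 with RA at overlapping peaks, and Junb had 12.8 and 10.3, also at overlapping peaks. Batf2 and Spib had no peak in any list.

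Of 19 genes of interferon reception and nucleic acid sensing, 7 had a peak in RARα control (against 7.18% of all genes) and 2 in RARα RA (against 3.19%), where BATF control had 18 (against 48.6%) and BATF RA 16 (against 38.2%). The RARα control peaks included an intergenic peak of fold 9.73 that named both Ifnar1 and Ifngr2. These are neighbouring genes for receptor chains of type I interferon and interferon-γ. Another intergenic peak, of fold 7.44, named Ifngr1, the other interferon-γ receptor chain. Ifngr1 had 7 peaks in RARα control and 2 in RARα RA. The highest with RA, at 6.76, lay at a different site from the control peak of 7.44, and its other peaks were not compared. The top BATF value was at Ifnar2, the second chain of the type I interferon receptor, at 52.4 in control and 52.9 with RA at overlapping intergenic peaks. Mavs, the adaptor of RNA sensing on mitochondria, had no peak in any list.

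Of 7 genes whose products bind or modify IRF proteins, 4 had a peak in RARα control (against 7.18% of all genes), 1 in RARα RA (against 3.19%), 7 in BATF control (against 48.6%) and 5 in BATF RA (against 38.2%). Irf2bp2, a corepressor that binds IRF2, had a RARα peak in each list but at different sites, an intergenic one of fold 3.19 in control and a promoter one of 2.63 with RA. Its relative Irf2bpl had the highest BATF value of the group, 42.6 in control and 29.1 with RA at overlapping intergenic peaks. Def6, whose product binds IRF4, had its highest BATF values at different sites, 10.3 in control and 8.36 with RA. Stat2 is counted in both the partner and the interferon group.

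Genes with the same number of peaks in all 4 lists were sought for the 3 members with RARα. For Irf2 the closest by fold enrichment were Chsy1, Bach2 and Laptm5, each with 1, 0, 9 and 3 peaks in RARα control, RARα RA, BATF control and BATF RA. Their highest fold enrichments differed from those of Irf2 by 20.8, 24.1 and 55.7, summed over the lists, so they were alike in counts only. For Irf4 they were Arhgef2, Sptbn1 and Csnk1g2, with 1, 0, 4 and 4 peaks and summed differences of 1.15, 5.18 and 5.73. For Irf8 they were Sema4a, Ssr2 and Cggbp1, with 2, 0, 5 and 3 peaks and summed differences of 9.53, 9.53 and 10.7. None of these shared a peak with the IRF gene, and likeness was measured over 4 lists only. Sema4a and Ssr2 had equal counts and equal summed differences, so they may not be separate matches. Whether the same peaks named both was not compared here.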

How the data were processed

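The authors aligned reads with Bowtie2, called peaks with MACS2 (version 2.2.7.1 per the file headers, genome size 1870000000) on 2 pooled ChIP files per condition against 1 IgG file, and annotated them with HOMER on mm10. The deposited pileup at the summit is a signal in fragments, and its BATF control values are multiples of 0.988. The deposited fold enrichment is the ratio that the authors obtained from MACS2 by dividing the pileup by the local IgG level, with 1 added to both. The deposited −log10 p-value and −log10 q-value columns were computed by the authors with MACS2 from the pileup against the local IgG level. The labels do not say whether the 2 pooled files are separate cultures. IgG binding was not analysed here on its own.

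Gene positions came from a RefSeq table of GRCm38.p6, the same assembly as mm10, in which at least 99.5% of the symbols of each list matched. A peak belonged to a gene when its symbols, split on semicolons, held it. All 6 genes and their peaks are given, with up to 3 genes of each related list by fold enrichment and, for each member with RARα, the 3 genes most alike in peak counts. A few genes of the related lists are not reported here and were left out of their counts. Members and lists were chosen with earlier results of these data known. Peaks were shared at a gap of at most 5 kb, the tolerance of the study, and BATF peaks were paired by nearest midpoint. Pileups were also scaled to 10000000 fragments of the pool, with exact Poisson 95% intervals, and shares have Wilson 95% intervals. Overlap code was tested on simulated peaks. Alternatives were stricter p, q and fold limits, nearer assignment, other overlaps, other scalings and leaving out each gene. Sequences and motifs were not analysed here. Values were computed in Python 3.11.15 with pandas 2.3.3, numpy 2.4.6 and scipy 1.17.1, and drawn with matplotlib 3.10.9.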

Additional observations from a re-analysis of the deposited data

Results flagged for a closer look

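At 3 IRF sites RARα was called only without RA, while BATF fold enrichment was higher with RA by 1.40 times at the distal Irf4 site and by 1.16 and 1.45 times at the stronger and the weaker RARα site of Irf8. At the other RARα site, the Irf2 promoter, BATF was lower with RA by both measures, so it was higher at 3 of 4. The same 3 sites were higher by pileup per 10000000 fragments, where 26.9% of the 405 comparable RARα control peaks were. The counting intervals of the BATF pileup in control and RA overlapped at all 3, and an uncalled RARα peak is not an absence of RARα. The difference was not tested, since each condition had 1 list.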

How the results depend on the processing

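No paired analysis was possible because each condition had 1 pooled list, with no replicates to pair or to leave out. Of 59 alternatives taken as able to change a value, 17 moved it, 2 turned its direction and 40 did neither. A count or median was taken as moved past 1.5 times and a share when outside its own 95% interval. Another 6 could only remove peaks from an empty set or repeat the limit of the call. The q-value limit of 0.05 could not change the BATF counts or shares either, since every BATF peak at the IRF genes already passed it. Those alternatives are among the 40. The 4 RARα control peaks became 2 at p of at most 1e-05, 2 at a q-value of at most 0.05, 1 at a fold enrichment of at least 5 and 1 within 10 kb of the gene. The 21 BATF control peaks became 13 at a fold enrichment of at least 5 and 10 within 10 kb, and the 11 BATF RA peaks became 3 within 10 kb. Taking every peak within 100 kb whatever gene it named, an alternative chosen after seeing the data, gave 7, 45 and 25. By nearest protein-coding gene there were 4 peaks in RARα control, 16 in BATF control and 8 in BATF RA. RARα RA had 0 also by nearest gene and within 100 kb. The share of BATF control peaks with a BATF RA peak stayed in its interval but was 47.6% by overlap and 50% within 10 kb of the gene, and that of BATF RA peaks with a BATF control peak was 87.5% at a fold enrichment of at least 5. The median log2 ratio of -0.04, close to 0, was -0.021 with no constant added to the ratio, -0.13 over overlapping pairs, and -0.076, -0.019 and -0.11 without Irf2, Irf3 and Irf8. It turned to 0.10 by pileup per 10000000 fragments and to 0.0089 without Irf4, and the pairs lower with RA went from 8 of 14 to 5 of 14 and 5 of 11. The cause of these turns was not tested. The depth of BATF RA was 71.1% of that of BATF control, and its part in the absent BATF RA peaks was not tested.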

Other observations

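Irf7 and Irf9, looked up after the values above were seen, had BATF peaks and no RARα peak. Both BATF lists had 2 of 2, against 48.6% of all protein-coding genes in control and 38.2% with RA. Both RARα lists had 0 of 2, against 7.18% of genes in control and 3.19% with RA, so most genes had none. Irf7, the interferon-induced amplifier of type I interferon, had 2 in control with a highest fold of 6.59 and 1 with RA of 8.92. Irf9, the DNA-binding part of a complex formed on type I interferon signalling, had 1 in each list, at 5.56 and 4.93.

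Several members had peaks nearby that the annotation gave to other genes. Within 100 kb of Irf1, 9 BATF control peaks, 6 BATF RA peaks and 3 RARα control peaks were named for other genes, and for BATF control there were 6 such peaks near Irf3, 6 near Irf4, 2 near Irf5 and 1 near Irf8. Those near Irf4 include the Exoc2 peak at chr13:30812990-30814085, which already enters the site counts. Whatever gene they named, BATF peaks within 100 kb in control and RA numbered 8 and 5 at Irf3, 10 and 6 at Irf4, 2 and 1 at Irf5, and 6 and 4 at Irf8. The strongest near Irf1, in an intron of Gm12216 and 67153 bp from Irf1, had a BATF fold enrichment of 23.5 in control and 22.8 with RA. The 3 RARα control peaks were also named Gm12216, the nearest 16613 bp from Irf1 with a fold enrichment of 3.77.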
